A study of Mus musculus with 9 samples.

Results

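The transcriptomes of the 2 conventional dendritic cell subsets of the mouse spleen, cDC1 and cDC2, were compared gene by gene. The comparison took 6 of the 9 libraries of the series, 3 of cDC1 and 3 of cDC2, and 11518 of the 14862 listed genes, those above 1 RPKM (reads per kilobase of the gene and per M reads of the library) in at least 2 of the 6 libraries, while 3344 fell below that. Both groups were spleen cells of C57Bl/6 mice aged 8 to 12 weeks, labelled by cell type as cDC1 or cDC2, and the labels name no treatment or altered allele for either. The labels give neither the markers by which the cells were isolated nor whether each library had its own animals, so a p-value here reflects only how far the libraries at hand spread, which may be technical. Library titles run in neighbouring numbers, 29 and 30, 32 and 33, 35 and 36, and each such title run holds 1 cDC1 and 1 cDC2 library, called here replicates 1, 2 and 3. The remaining 3 libraries of the series, labelled mcDC, were left out of the fit. Total RNA was sequenced after a directional library preparation, per the labels' protocols.

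Conventional dendritic cells take up material from their surroundings, cut it into peptides and show these on MHC molecules to T cells. cDC1 depend on the transcription factor IRF8, take up dead cells and are known for presenting the antigens of those cells on MHC class I to CD8 T cells, and in the spleen they carry the CD8 alpha chain. cDC2 are a more varied population that shares many genes with monocytes, is marked by SIRP alpha and CD11b, and is known for presenting antigen on MHC class II to CD4 T cells. Because these are bulk libraries, fewer cells that make a transcript and less of that transcript in each cell cannot be told apart.

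Throughout, the 3 values of a subset are RPKM in replicates 1, 2 and 3, in that order. A difference is the mean log2(RPKM + 1) of cDC1 minus that of cDC2, ± its standard error, so it is positive where cDC1 was higher. A gene is said to be higher or lower, or called, where its adjusted p in limma, Benjamini-Hochberg adjusted over all 11518 genes, was under 0.05. The 6 libraries held 9.19 to 12.4 M reads, so a single read in 1 kb of gene amounted to 0.0805 to 0.109 RPKM. Sampling of reads alone did not account for the spread of replicates, since chi-square divided by its degrees of freedom was 10.8 to 28.1 in the 6 pairs within a subset.

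Among the cDC1 libraries, replicate 1 stood apart. cDC1 replicate 1 was the highest of the cDC1 libraries for 531 of the 789 genes that were at least 2-fold lower in cDC1 (67.3%), against 87 and 171 for replicates 2 and 3, and exceeded the mean of those by a median of 0.31 on the log2 scale. Among the 631 genes at least 2-fold higher in cDC1 it was the highest cDC1 library for 101 (16%). The 29 genes of the cDC2 identity list summed to 1117 RPKM in it, against 644 and 738 RPKM in the other cDC1 libraries and 2793 to 3504 RPKM in cDC2. Whether cDC1 replicate 1 held other cells was not tested, and without it 4002 genes were called in place of the 3731 below. No cDC2 library was shifted likewise. Over the 789 genes, cDC2 replicates 1, 2 and 3 differed from the others by medians of -0.04, 0.03 and 0.02. cDC2 replicate 1 did hold the least neutrophil RNA of its subset. There the 19 neutrophil genes present in the data summed to 207 RPKM, where the highest cDC2 library reached 1739. Of the variance 78.4% lay on a first principal component that separated the subsets, with cDC1 at 33.2, 48.7 and 46.7 and cDC2 between -43.6 and -42.0. The second component, with 10.8%, placed replicate 1 of both subsets at positive values, 26.6 and 15.6, and replicate 3 of both at negative ones, -17.6 and -15.1.

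Of the 11518 genes, 3731 were called (32.4%), 1759 higher in cDC1 (15.3%) and 1972 lower (17.1%). At least 2-fold differences were found at 631 called genes in the higher direction (5.48%) and at 789 in the lower (6.85%), and at least 8-fold ones at 62 and 97. The median difference over all genes tested was -0.027, so the scale as deposited was close to balanced between the subsets. In 3728 of the 3731 called genes all 3 title runs had the same sign. At 5397 genes (46.9%) all libraries of one subset lay above all of the other, a count that does not require a call. With the title run as a replicate block, the blocked fit from here on, 4521 genes were called (39.3%), of which 3670 were also called without it. Leaving out 1 library at a time gave 2576 (without cDC2 replicate 2) to 4002 calls, and each of the 3731 genes kept its sign in all of these fits. The title runs and these fits reuse the libraries that gave the calls, so the signs are not independent support.

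**Figure D1:**
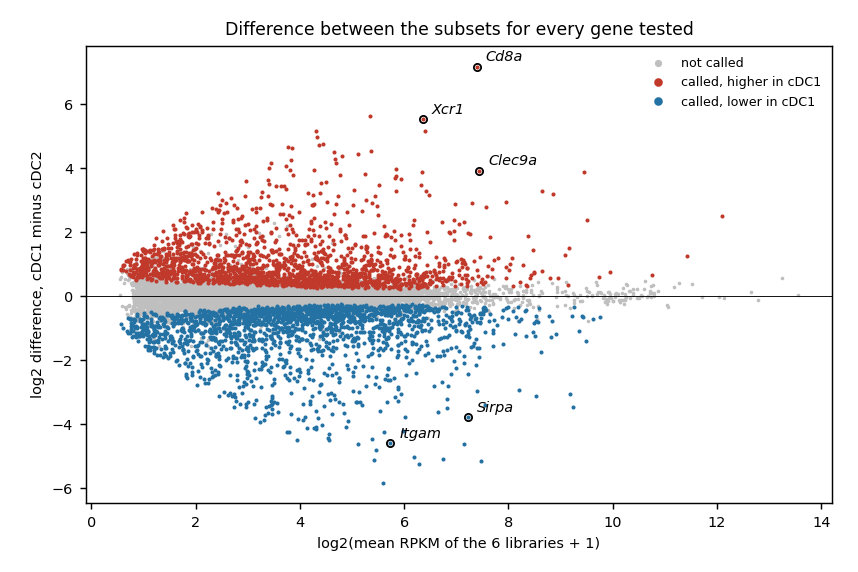
Each point is 1 of the 11518 genes tested. The horizontal axis is log2(mean RPKM of the 6 libraries + 1), the vertical axis the log2 difference, cDC1 minus cDC2, and the 5 circled genes are the markers of the subsets: Cd8a, Xcr1 and Clec9a lie above 3.9 and Sirpa and Itgam below -3.7.

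Each of the 5 markers differed in the direction that the labels imply. Cd8a (Entrez gene 12525), the CD8 alpha chain, was at 306, 344 and 346 RPKM in cDC1 and 1.22, 1.27 and 1.41 RPKM in cDC2, a difference of 7.18 ± 0.09 (adjusted p = 1.3e-08). Xcr1 (23832), the receptor for the chemokine XCL1, was at 131, 174 and 173 RPKM in cDC1 and 1.95, 2.81 and 2.58 RPKM in cDC2 (5.54 ± 0.15, adjusted p = 5.6e-07). Clec9a (232414), a lectin that binds actin of dead cells, was at 308, 353 and 315 RPKM in cDC1 and 20.2, 17 and 24.3 RPKM in cDC2 (3.93 ± 0.13, adjusted p = 1.6e-06). All 3 were high in each cDC1 library and low in each cDC2 library, although Clec9a stayed near 20 RPKM in cDC2 while Cd8a was near 1. Itgam (16409), the CD11b chain, was at 3.99, 2.61 and 3.1 RPKM in cDC1 and 80.9, 105 and 117 RPKM in cDC2 (-4.59 ± 0.17, adjusted p = 2.5e-06). Sirpa (19261), an inhibitory receptor that binds CD47, was at 43, 11.5 and 13.4 RPKM in cDC1 and 277, 278 and 267 RPKM in cDC2 (-3.78 ± 0.42, adjusted p = 0.00032). Sirpa was level among the cDC2 libraries, while cDC1 replicate 1 held over 3 times as much as the other cDC1 libraries, and the groups did not overlap. Of the cDC1 identity list, 28 of 28 tested genes were higher in cDC1, with a median difference of 3.43. Of the cDC2 identity list, 23 of 28 were lower and 3 higher (median -2.64). These lists were drawn up from genes linked to either subset and with earlier results of these data known, so the counts are not independent evidence.

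The 3 cDC2 identity genes that went against the name of the list were Cd81, Cd9 and Clec12a. Cd81, a tetraspanin, was at 162, 181 and 183 RPKM in cDC1 and 38.1, 31.8 and 32.5 RPKM in cDC2 (2.33 ± 0.10, adjusted p = 4.2e-06). Clec12a, an inhibitory lectin that binds uric acid crystals, was at 83.9, 70.5 and 77.1 RPKM in cDC1 and 43.3, 42 and 55.4 RPKM in cDC2 (0.71 ± 0.13, adjusted p = 0.0034). Cd9, a tetraspanin related to Cd81, was at 118, 136 and 160 RPKM in cDC1 and 87, 83.4 and 102 RPKM in cDC2 (adjusted p = 0.011, and 0.052 without cDC2 replicate 2). In each of them every cDC1 library was above every cDC2 library. Dtx1, which acts in the Notch pathway, was at 9.87, 3 and 4.27 RPKM in cDC1 and 80.7, 68.2 and 47.4 RPKM in cDC2 (-3.41 ± 0.35, adjusted p = 0.00024). Clec10a, a lectin for galactose-type sugars, was at 2.93, 1.8 and 2.05 RPKM in cDC1 and 20.6, 45.4 and 67.5 RPKM in cDC2 (-3.67 ± 0.38, adjusted p = 0.00022), so the cDC2 libraries themselves spread more than 3-fold.

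Beyond the markers, the largest differences were a mixture of surface proteins, enzymes and genes of little-known function. Ttc39a was at 60.3, 91.8 and 85 RPKM in cDC1 and 0.623, 0.816 and 0.395 RPKM in cDC2 (5.62 ± 0.18, adjusted p = 1.5e-06). P3h2, a prolyl hydroxylase that acts on collagen, was at 40, 37.9 and 35.9 RPKM in cDC1 and 0.145, 0.347 and 0.214 RPKM in cDC2 (4.98 ± 0.12). Mab21l3 was at 34.7, 39.2 and 39.3 RPKM in cDC1 and 0.0611, 0.0975 and 0.0452 RPKM in cDC2 (5.18 ± 0.12), where the cDC2 values rest on 2 to 4 reads a library. These 3 genes were under 1 RPKM throughout cDC2, and the cDC1 libraries were within about 1.5-fold of each other. Itgae, the CD103 integrin chain, was at 17.1, 42 and 64.3 RPKM in cDC1 and 0.279, 0.371 and 0.429 RPKM in cDC2 (4.77 ± 0.40). Its cDC1 libraries differed from each other nearly 4-fold, with replicate 1 the lowest, and all lay far above cDC2. Plpp1, a phosphatase that removes phosphate from signalling lipids, was at 32.5, 42 and 42.5 RPKM in cDC1 and 0.308, 0.442 and 0.774 RPKM in cDC2 (4.73 ± 0.16). Dkk3, a secreted protein of the Dickkopf family, was at 20.1, 29.2 and 26.7 RPKM in cDC1 and 0, 0 and 0.0718 RPKM in cDC2, which is at most 3 reads in a cDC2 library. Cd207, langerin, was at 26.2, 34 and 20.2 RPKM in cDC1 and 0.213, 0 and 0.0525 RPKM in cDC2, likewise at most 3 reads in cDC2. With so few reads no ratio is given for Dkk3 and Cd207, but the 3 genes just named were present at 20 RPKM or more in each cDC1 library. Gcsam, an adaptor that acts in lymphocyte motility, was at 66.9, 80.3 and 87.3 RPKM in cDC1 and 1.03, 3.22 and 3.49 RPKM in cDC2. Laptm4b, a lysosomal membrane protein, was at 40.3, 56.3 and 44.3 RPKM in cDC1 and 1.03, 0.777 and 1.48 RPKM in cDC2. Pianp, a ligand of the paired receptor PILR alpha, was at 48.6, 71 and 75.2 RPKM in cDC1 and 1.16, 1.56 and 3.61 RPKM in cDC2. Within cDC2, replicate 3 was the highest for each of Gcsam, Laptm4b and Pianp.

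On the cDC2 side the list was led by Ace, the angiotensin-converting enzyme, at 1.04, 0.465 and 0.559 RPKM in cDC1 and 81.6, 96.1 and 104 RPKM in cDC2 (-5.82 ± 0.16, adjusted p = 5.6e-07). Ace also stands in the monocyte list below, and the part of monocyte RNA in its difference was not tested. Tgm2, a transglutaminase that cross-links proteins, was at 5.37, 4.78 and 5.29 RPKM in cDC1 and 196, 226 and 201 RPKM in cDC2 (-5.08 ± 0.09, adjusted p = 7.4e-08). Pltp, which transfers phospholipids between lipoproteins, was at 1.61, 0.603 and 0.685 RPKM in cDC1 and 28.7, 44.9 and 58.5 RPKM in cDC2 (-4.50 ± 0.28). Of these 3, Tgm2 was the steadiest within both subsets. Adgre4, an adhesion G protein-coupled receptor of myeloid cells, was at 2.44, 1.09 and 2.95 RPKM in cDC1 and 74.7, 82.1 and 94.6 RPKM in cDC2 (-4.79 ± 0.23). Adgre1, the related F4/80 antigen of macrophages, was at 6.97, 1.76 and 4.29 RPKM in cDC1 and 95.7, 90.2 and 87.6 RPKM in cDC2 (-4.24 ± 0.33). Mmp9, the gelatinase stored in neutrophil granules, was at 0.114, 0.286 and 0.39 RPKM in cDC1 and 40.5, 27.1 and 18.5 RPKM in cDC2 (-4.49 ± 0.26). Mmp9 was highest in the cDC2 library with the least of the other neutrophil RNA, so its order among the replicates was opposite to that of S100a9, a calcium-binding protein of granulocytes, at 4.63, 4.76 and 13.4 RPKM in cDC1 and 45.9, 296 and 482 RPKM in cDC2.

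**Figure D2:**
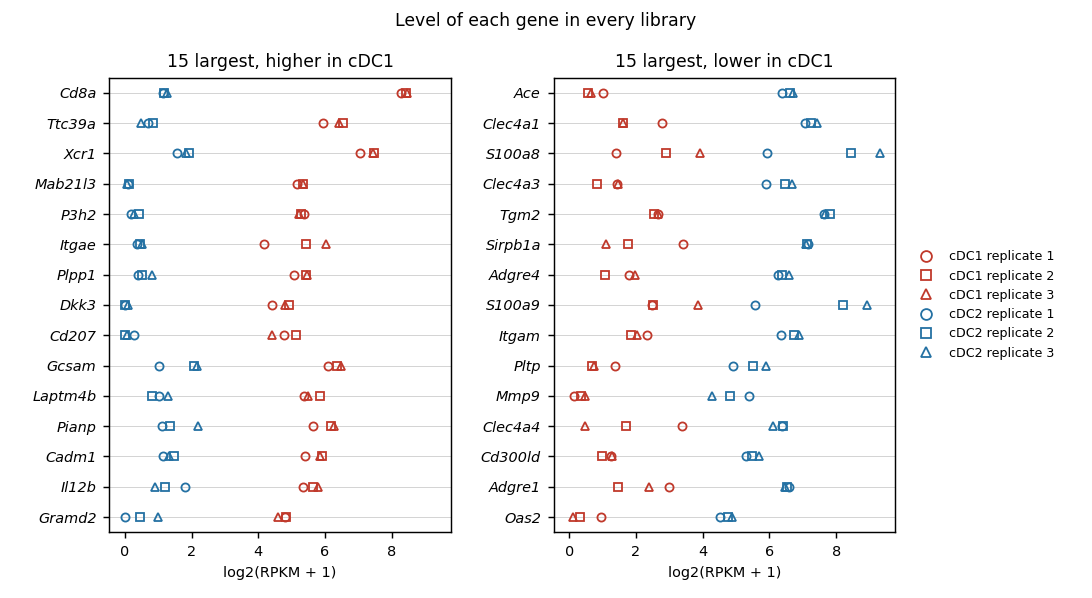
The 15 called genes with the largest difference in each direction, at least 10 RPKM in every library of the higher subset and no overlap between the subsets. Predicted genes and genes of the X and Y chromosomes were left out. The lack of overlap was thus a condition of choice. Each mark is log2(RPKM + 1) in 1 library, red for cDC1, blue for cDC2, with circles, squares and triangles for replicates 1, 2 and 3. In the right panel several red circles lie to the right of the other red marks, as for Sirpb1a at 9.73 against 2.36 and 1.17 RPKM, and the blue circles of S100a8 and S100a9 lie to the left.

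The promoters of 4 genes that separate the subsets are shown because each holds a match to at least 1 of the 4 motifs given below. They were picked after values and motif matches were seen. Each is the 250 bases before the annotated start, from RefSeq on build GRCm38.p6, on the plus strand of the genome and in the direction of the gene. Capitals mark matches, on either strand, to 4 motifs: the composite element of ETS and IRF factors (GGAA, any 2 bases, GAAA), the core of the interferon stimulated response element (GAAA, any 2 bases, GAAA), the AP-1 element (TGANTCA) or a PU.1 element (GAGGAAG). Matches of different motifs may overlap.
Cd8a, chr6:71373177-71373426: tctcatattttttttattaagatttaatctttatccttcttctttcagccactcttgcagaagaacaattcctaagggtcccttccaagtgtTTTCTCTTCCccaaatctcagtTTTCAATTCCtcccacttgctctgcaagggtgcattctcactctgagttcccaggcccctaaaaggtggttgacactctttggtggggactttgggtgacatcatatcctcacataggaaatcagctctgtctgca
Clec4a1, chr6:122921598-122921847: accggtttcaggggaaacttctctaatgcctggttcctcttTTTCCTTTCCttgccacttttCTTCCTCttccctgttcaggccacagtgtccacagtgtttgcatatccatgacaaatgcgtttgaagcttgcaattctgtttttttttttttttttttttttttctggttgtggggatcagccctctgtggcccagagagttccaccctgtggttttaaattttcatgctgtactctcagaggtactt
Itgam, chr7:128062390-128062639: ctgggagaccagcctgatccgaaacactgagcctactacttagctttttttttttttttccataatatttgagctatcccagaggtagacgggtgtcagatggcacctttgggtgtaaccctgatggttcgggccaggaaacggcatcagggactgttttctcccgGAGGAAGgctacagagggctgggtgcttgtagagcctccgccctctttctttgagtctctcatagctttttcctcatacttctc
Ifit3, chr19:34583279-34583528: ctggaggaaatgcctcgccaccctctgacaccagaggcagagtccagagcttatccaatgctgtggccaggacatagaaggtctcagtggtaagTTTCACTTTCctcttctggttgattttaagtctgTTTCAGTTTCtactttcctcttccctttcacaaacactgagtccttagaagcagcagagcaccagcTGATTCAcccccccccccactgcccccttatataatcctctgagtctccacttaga
Cd8a holds 2 matches to the ETS and IRF composite, both read on the opposite strand, 158 and 136 bases before the start. Clec4a1, a lectin called lower in cDC1, holds a match to the same composite 209 bases before its start and 1 to GAGGAAG at 188. In Itgam the single match is GAGGAAG, 84 bases before the start, and in Ifit3 the interferon response core occurs at 156 and 122 bases and TGANTCA at 56. Windows were matched for 9206 of the 11518 genes tested. Of these windows 2.49% held the ETS and IRF composite, 3.51% the interferon response core, 5.36% the AP-1 element and 13.2% the PU.1 element. A window was matched for 78.4% of the genes at least 2-fold higher in cDC1 and for 76.3% of those lower, under the 80% set for comparing sets, so no shares are compared between the subsets. A match is a description of letters and not evidence of a bound site.

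Transcription factors were called in both directions, 11 of 74 higher and 26 lower in cDC1, with a median difference of -0.27. Over all genes tested 15.3% were higher and 17.1% lower, so the higher count was close to the common share. Counts of the lists below are to be read against these shares, and a count near them is no trait of its list. Irf8, which cDC1 need for their development, was at 620, 785 and 777 RPKM in cDC1 and 50.9, 83.2 and 94.7 RPKM in cDC2 (3.28 ± 0.22, adjusted p = 3.4e-05). Mycl, a MYC family member that maintains dendritic cells, was at 92, 101 and 94.2 RPKM in cDC1 and 29.9, 24.1 and 20.9 RPKM in cDC2 (1.91 ± 0.13, adjusted p = 3.5e-05). Both were higher in every cDC1 library, and Irf8 was also above 50 RPKM in each cDC2 library. Among those lower in cDC1, Cebpb, a factor of myeloid cells, was at 3.89, 2.93 and 5.23 RPKM in cDC1 and 52, 43.3 and 56.3 RPKM in cDC2 (-3.38 ± 0.18, adjusted p = 1.1e-05). Zeb2, a repressor needed for several myeloid lineages, was at 7.23, 2.71 and 2.27 RPKM in cDC1 and 19.3, 21 and 19.7 RPKM in cDC2 (-2.18 ± 0.31). Klf4, needed by a fraction of cDC2, was at 50.7, 19 and 19.2 RPKM in cDC1 and 128, 98.7 and 103 RPKM in cDC2 (-2.00 ± 0.34). For Zeb2 and Klf4, cDC1 replicate 1 was more than 2-fold above the other cDC1 libraries and still below every cDC2 library. Irf4, the cDC2 counterpart of Irf8, was at 23.3, 7.19 and 5.68 RPKM in cDC1 and 36.1, 24.8 and 20.5 RPKM in cDC2 and was not called (adjusted p = 0.059). Its adjusted p was 0.0054 in the blocked fit, 0.037 with voom on recovered reads and 0.00065 without cDC1 replicate 1, and cDC1 replicate 1 lay within the range of cDC2. Fosl2, an AP-1 subunit, was at 0.914, 0.99 and 0.633 RPKM in cDC1 and 4.1, 6.1 and 6.98 RPKM in cDC2 (-1.85 ± 0.20), and Nr1h3, the sterol receptor LXR alpha, at 0.56, 1.76 and 1.57 RPKM in cDC1 and 5.42, 8.15 and 8.05 RPKM in cDC2 (-1.86 ± 0.25), both lower in each cDC1 library. The early response genes Fos, Jun and Junb were not called, with adjusted p of 0.56, 0.077 and 0.1, and 0.031, 0.00064 and 0.0044 in the blocked fit (0.03 for Jun without cDC1 replicate 1). Jun was highest in replicate 1 of both subsets, at 363, 221 and 252 RPKM in cDC1 and 656, 355 and 382 RPKM in cDC2, so the cDC1 library of that run lay within the cDC2 range.

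Receptors that guide cell movement divided between the subsets. Of 15 chemokine receptors tested, 4 were higher in cDC1 and 7 lower. Besides Xcr1, Cxcr3, the receptor for interferon-induced chemokines, was at 18.6, 26.8 and 32.9 RPKM in cDC1 and 2.7, 3.56 and 3.7 RPKM in cDC2 (2.62 ± 0.21, adjusted p = 6.1e-05). Ccr9, the receptor for the gut and thymus chemokine CCL25, was at 11.2, 9.33 and 9.37 RPKM in cDC1 and 1.36, 1.24 and 0.951 RPKM in cDC2 (2.33 ± 0.14). Ccr6, the receptor for CCL20, was at 0.251, 0.668 and 0.238 RPKM in cDC1 and 13.4, 11.1 and 9.07 RPKM in cDC2 (-3.14 ± 0.19, adjusted p = 1.9e-05). Ccr6 was under 1 RPKM in every cDC1 library, whereas Cxcr3 and Ccr9 stayed above that level in most or all cDC2 libraries. Cx3cr1, the fractalkine receptor, was at 16, 6.57 and 5.88 RPKM in cDC1 and 58.5, 67.1 and 72.3 RPKM in cDC2 (-2.80 ± 0.31). Ccrl2, a receptor that holds chemerin at the surface, was at 5.81, 4.52 and 3.64 RPKM in cDC1 and 38, 24.5 and 24.6 RPKM in cDC2 (-2.40 ± 0.20). Cxcr4, the receptor for CXCL12, was at 28.2, 20.3 and 17.6 RPKM in cDC1 and 46.2, 43.2 and 56.4 RPKM in cDC2 (-1.12 ± 0.18). All 3 were lower in each cDC1 library, with cDC1 replicate 1 the highest of its subset.

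Of 15 chemokine ligands, 6 were higher in cDC1 and 4 lower. Cxcl9, an interferon-induced ligand of CXCR3, was at 81.6, 105 and 125 RPKM in cDC1 and 7.33, 6.3 and 7.22 RPKM in cDC2 (3.70 ± 0.15, adjusted p = 4.1e-06). Ccl22, which attracts CCR4-bearing T cells, was at 53.1, 60.5 and 62.8 RPKM in cDC1 and 6.72, 3.78 and 4.7 RPKM in cDC2 (3.32 ± 0.17, adjusted p = 1e-05). Cxcl16, a membrane-bound ligand of CXCR6, was at 101, 115 and 102 RPKM in cDC1 and 41.1, 20.4 and 21.9 RPKM in cDC2 (1.96 ± 0.24). These ligands of T cell receptors for chemokines were each higher in every cDC1 library. On the other side Ccl9, a ligand of CCR1, was at 5.8, 2.68 and 3.53 RPKM in cDC1 and 36.4, 39.4 and 60.2 RPKM in cDC2 (-3.22 ± 0.26, adjusted p = 6.9e-05). Ccl6, another ligand of CCR1, was at 17.5, 10.7 and 13.4 RPKM in cDC1 and 69.6, 76.4 and 125 RPKM in cDC2 (-2.60 ± 0.24). Ccl3, a ligand of CCR1 as well, was at 19.2, 4.59 and 10.2 RPKM in cDC1 and 100, 58 and 62.7 RPKM in cDC2 (-2.74 ± 0.43), the most variable of these among the cDC1 libraries.

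Receptors for lipids, nucleotides and formyl peptides were called at 12 genes higher and 16 lower of 46. P2ry14, the receptor for UDP-glucose, was at 30.3, 35.5 and 39.6 RPKM in cDC1 and 0.9, 1.68 and 1.52 RPKM in cDC2 (3.94 ± 0.17, adjusted p = 4.1e-06). Gpr171 was at 19.1, 16.4 and 18.5 RPKM in cDC1 and 1.12, 1.56 and 1.99 RPKM in cDC2 (2.90 ± 0.15). Ltb4r1, the high-affinity receptor for leukotriene B4, was at 0.391, 0.847 and 0.519 RPKM in cDC1 and 18.8, 14.6 and 25.4 RPKM in cDC2 (-3.68 ± 0.21, adjusted p = 1.3e-05). P2ry14 and Gpr171 were under 2 RPKM in every cDC2 library and Ltb4r1 under 1 RPKM in every cDC1 library. S1pr5, a receptor for sphingosine 1-phosphate, was at 0.364, 0.509 and 1.45 RPKM in cDC1 and 13.9, 13.9 and 17.6 RPKM in cDC2 (-3.23 ± 0.23). Ffar2, a receptor for short-chain fatty acids, was at 13.9, 9.25 and 9.94 RPKM in cDC1 and 74.2, 63.7 and 61.7 RPKM in cDC2 (-2.50 ± 0.15). Both were lower in each cDC1 library, Ffar2 from a higher level. The prostaglandin E2 receptors divided, with Ptger2 at 3.74, 6.31 and 6.51 RPKM in cDC1 and 0.202, 0.46 and 0.874 RPKM in cDC2 (2.10 ± 0.24). Its relative Ptger3 was at 1.39, 0.315 and 0.664 RPKM in cDC1 and 12.5, 12.3 and 9.56 RPKM in cDC2 (-2.83 ± 0.23). Ptger1 was at 42.8, 50.2 and 38.2 RPKM in cDC1 and 48.2, 44.1 and 38.2 RPKM in cDC2 and was not called (adjusted p = 0.98), so one receptor of this small family was higher, another lower and a further one overlapped.

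Adhesion molecules were called at 12 genes higher and 17 lower of 43. Cadm1, which binds CRTAM on activated T cells, was at 41.4, 58.9 and 56.5 RPKM in cDC1 and 1.22, 1.78 and 1.51 RPKM in cDC2 (4.40 ± 0.16, adjusted p = 2.4e-06), and its relative Cadm3 went the other way at 17, 5.21 and 2.26 RPKM in cDC1 and 48, 39.3 and 29.9 RPKM in cDC2 (-2.46 ± 0.54, adjusted p = 0.0095). Spn, the sialomucin CD43, was at 17.5, 10.4 and 11.7 RPKM in cDC1 and 47.5, 52.1 and 63.2 RPKM in cDC2 (-1.98 ± 0.19). Itgb5, the integrin beta 5 chain, was at 2.1, 1.38 and 2.14 RPKM in cDC1 and 9.53, 8.62 and 9.61 RPKM in cDC2 (-1.85 ± 0.15). The P-selectin ligand Selplg was high in all 6 libraries, at 186, 224 and 229 RPKM in cDC1 and 183, 197 and 228 RPKM in cDC2, and was not called (adjusted p = 0.71).

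Regulators of small GTPases and actin were mostly lower in cDC1, 45 of 86 against 15 higher, with a median difference of -0.32. Myo1e, a membrane-linked myosin, was at 1.25, 0.862 and 0.772 RPKM in cDC1 and 9.3, 11.3 and 8.68 RPKM in cDC2 (-2.46 ± 0.16, adjusted p = 2.6e-05). Arhgef3, an exchange factor that activates GTPases, was at 6.27, 6.21 and 6.56 RPKM in cDC1 and 19.9, 18.6 and 18.2 RPKM in cDC2 (-1.44 ± 0.10). Rnd3, an atypical small GTPase, was at 42.8, 19.1 and 17.3 RPKM in cDC1 and 88.3, 74.9 and 73.9 RPKM in cDC2 (-1.66 ± 0.30). Each was lower in every cDC1 library. In the other direction Fmnl2, a formin that extends actin filaments, was at 75.9, 78.5 and 63.6 RPKM in cDC1 and 8.66, 7.87 and 9.59 RPKM in cDC2 (2.92 ± 0.11, adjusted p = 3e-06). Arhgap22, which turns off Rac, was at 101, 129 and 122 RPKM in cDC1 and 23.7, 25.6 and 22.7 RPKM in cDC2 (2.24 ± 0.11). Fgd6, an exchange factor for Cdc42, was at 7.97, 11.1 and 9.55 RPKM in cDC1 and 0.0811, 0.69 and 0.46 RPKM in cDC2 (2.91 ± 0.20).

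Of 37 C-type lectins, which bind sugars and other ligands at the surface, 8 were higher and 21 lower in cDC1 (median -1.16). Cd209a, the mouse DC-SIGN homologue that binds mannose, was at 80, 17.8 and 20 RPKM in cDC1 and 273, 339 and 396 RPKM in cDC2 (-3.39 ± 0.50, adjusted p = 0.0015), with cDC1 replicate 1 about 4-fold above its replicates. Among the DCIR lectins, which carry an inhibitory motif in several members, Clec4a1 was at 5.83, 2.04 and 2.05 RPKM in cDC1 and 134, 150 and 171 RPKM in cDC2 (-5.25 ± 0.30, adjusted p = 1.3e-05). Clec4a3 was at 1.72, 0.8 and 1.75 RPKM in cDC1 and 58.8, 86.9 and 102 RPKM in cDC2 (-5.10 ± 0.24, adjusted p = 6.5e-06). Clec4a4, known as DCIR2, was at 9.31, 2.24 and 0.378 RPKM in cDC1 and 82.4, 83.8 and 67.8 RPKM in cDC2 (-4.46 ± 0.61, adjusted p = 0.00098). The DCIR genes were each lower in all cDC1 libraries, and Clec4a4 spread the most among these. In the neighbouring Clec4b pair the members went opposite ways, with Clec4b1 at 1.39, 0.463 and 0.526 RPKM in cDC1 and 14.4, 22.8 and 26.3 RPKM in cDC2 (-3.63 ± 0.26). Clec4b2 was at 23.9, 19.5 and 15.5 RPKM in cDC1 and 0.104, 0.249 and 0.077 RPKM in cDC2 (4.16 ± 0.18), which rests on 1 to 3 reads in a cDC2 library. The Clec4a, Clec4b, Sirpb1, Pilrb, Fcgr, Oas, Ifit, Ifitm, Ifi200, Cyp4f, Serpinb and MHC genes have close relatives whose reads the counting could have divided between copies, so their separate levels are uncertain.

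Of 29 genes for the uptake of dead cells, 5 were higher and 11 lower in cDC1. Cd36, a scavenger receptor that binds apoptotic cells and oxidised lipids, was at 70.1, 83.6 and 78.7 RPKM in cDC1 and 8.82, 10.3 and 10.9 RPKM in cDC2 (2.83 ± 0.11, adjusted p = 3e-06). Havcr2, TIM-3, was at 178, 206 and 189 RPKM in cDC1 and 92.5, 90.2 and 76 RPKM in cDC2 (1.14 ± 0.11, adjusted p = 0.00014). Those 2 and Clec9a were higher in each cDC1 library. Lrp1, a large endocytic receptor, was at 6.85, 2.49 and 3.49 RPKM in cDC1 and 34.4, 41.2 and 44.5 RPKM in cDC2 (-3.04 ± 0.27, adjusted p = 0.00012). Cd300lf, which binds phosphatidylserine, was at 10.9, 3.33 and 3.43 RPKM in cDC1 and 68.1, 62.9 and 50 RPKM in cDC2 (-3.31 ± 0.37). Cd300a, a further phosphatidylserine receptor, was at 14.5, 9.6 and 12.9 RPKM in cDC1 and 47.3, 62 and 70.5 RPKM in cDC2 (-2.19 ± 0.18). Scarb1, a receptor for lipoproteins and apoptotic cells, was at 51.7, 50.1 and 50.8 RPKM in cDC1 and 42.2, 49.6 and 59.1 RPKM in cDC2 and was not called (adjusted p = 0.89).

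Fc and complement receptors were lower in cDC1 at 16 of 25 genes, with a median of -0.80, and higher at 5. The 5 higher ones became 3, 2 and 3 without cDC1 replicate 2, cDC1 replicate 3 and cDC2 replicate 2. Fcer1g, the signalling chain shared by activating Fc receptors, was at 113, 47.8 and 54.1 RPKM in cDC1 and 465, 464 and 623 RPKM in cDC2 (-2.93 ± 0.30, adjusted p = 0.00022). Fcgr3, a low-affinity receptor for IgG, was at 2.68, 2.61 and 3.43 RPKM in cDC1 and 18.2, 31.4 and 36.8 RPKM in cDC2 (-2.88 ± 0.24, adjusted p = 8.7e-05). Fcgr4, a receptor for IgG2, was at 2.47, 2.39 and 6.19 RPKM in cDC1 and 23, 32.7 and 51.7 RPKM in cDC2 (-2.99 ± 0.36, adjusted p = 0.00049). These activating receptors and their shared chain were lower in each cDC1 library. The inhibitory receptor Fcgr2b was at 39.1, 40.8 and 50.3 RPKM in cDC1 and 44, 69.5 and 99.7 RPKM in cDC2 and was not called (adjusted p = 0.1), although it was in the blocked fit (0.021) and without cDC2 replicate 1 (0.0069). Fcgrt, the neonatal Fc receptor that recycles IgG, was at 83.3, 83.2 and 94.6 RPKM in cDC1 and 42.5, 41.8 and 55.4 RPKM in cDC2 (0.90 ± 0.13, adjusted p = 0.0011). Fcrla, an Fc receptor-like protein of the secretory pathway, was at 24.6, 25.9 and 27.9 RPKM in cDC1 and 0.802, 0.598 and 1.54 RPKM in cDC2 (3.80 ± 0.18, adjusted p = 7e-06). C3, the central complement component, was at 0.353, 0.512 and 0.923 RPKM in cDC1 and 8.25, 13.4 and 15.2 RPKM in cDC2 (-3.03 ± 0.24).

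Paired receptors, whose members carry inhibitory or activating tails, were among the most one-sided lists, with 33 of 47 genes lower in cDC1, 6 higher, and a median of -1.69. Sirpb1a, an activating relative of SIRP alpha, was at 9.73, 2.36 and 1.17 RPKM in cDC1 and 142, 138 and 136 RPKM in cDC2 (-5.03 ± 0.50, adjusted p = 0.00019). Cd300ld was at 1.38, 0.968 and 1.44 RPKM in cDC1 and 38, 43.3 and 50.6 RPKM in cDC2 (-4.31 ± 0.14, adjusted p = 1.6e-06). Pilrb2, of the activating PILR beta family, was at 0.251, 0.703 and 2 RPKM in cDC1 and 15.3, 18.8 and 22.5 RPKM in cDC2 (-3.40 ± 0.31). All 3 were lower in each cDC1 library, and the cDC2 libraries were within 1.5-fold of each other. Btla, an inhibitory receptor for HVEM, was at 192, 239 and 228 RPKM in cDC1 and 40.5, 51.2 and 42.8 RPKM in cDC2 (2.27 ± 0.12, adjusted p = 1.1e-05), higher in each cDC1 library.

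The proteins that carry these signals showed a smaller shift, 42 of 74 lower and 12 higher (median -0.45). Dok3, an adaptor that dampens immune receptor signals, was at 2.11, 1.58 and 2.13 RPKM in cDC1 and 23, 30.2 and 34.7 RPKM in cDC2 (-3.35 ± 0.17, adjusted p = 8.7e-06). Src family kinases divided: Fgr was at 50, 27.1 and 33 RPKM in cDC1 and 174, 209 and 213 RPKM in cDC2 (-2.44 ± 0.21, adjusted p = 9e-05). Src itself was at 12.3, 15.5 and 10.7 RPKM in cDC1 and 0.475, 0.469 and 0.682 RPKM in cDC2 (3.15 ± 0.16, adjusted p = 1e-05). Src was under 1 RPKM in every cDC2 library, while Fgr was present in both subsets at different levels. The activators of Ras divided too, with Rasgrp1 at 3.01, 2.63 and 1.96 RPKM in cDC1 and 16.3, 13.5 and 14.7 RPKM in cDC2 (-2.17 ± 0.15). Rasgrp2 was at 12.8, 8.35 and 10.3 RPKM in cDC1 and 31.1, 32.9 and 37.7 RPKM in cDC2 (-1.62 ± 0.15). Rasgrp3 was at 39.7, 49.1 and 40.9 RPKM in cDC1 and 24.9, 17.4 and 9.22 RPKM in cDC2 (1.38 ± 0.30, adjusted p = 0.0091), the reverse direction. Tyrobp, the DAP12 adaptor that pairs with many activating receptors, was at 391, 340 and 457 RPKM in cDC1 and 846, 1030 and 1266 RPKM in cDC2 (-1.39 ± 0.18, adjusted p = 0.00066).

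Toll-like receptors were divided by member. Of 31 receptors and adaptors, 6 were higher and 16 lower in cDC1 (median -0.59). Tlr3, the endosomal receptor for double-stranded RNA, was at 89.8, 116 and 113 RPKM in cDC1 and 5.27, 7.94 and 7.65 RPKM in cDC2 (3.76 ± 0.16, adjusted p = 4.2e-06). Tlr11, which with Tlr12 senses profilin of parasites, was at 138, 180 and 162 RPKM in cDC1 and 20.8, 15.3 and 14.5 RPKM in cDC2 (3.18 ± 0.15, adjusted p = 7.5e-06). Tlr12 was at 34.9, 38 and 50 RPKM in cDC1 and 2.47, 2.02 and 3.06 RPKM in cDC2 (3.57 ± 0.17, adjusted p = 6.7e-06). These receptors were higher in each cDC1 library by at least 3 on the log2 scale on average. Tlr7, the endosomal receptor for single-stranded RNA, was at 4.15, 1.65 and 1.08 RPKM in cDC1 and 35.5, 36.2 and 33.9 RPKM in cDC2 (-3.57 ± 0.30, adjusted p = 8e-05). Tlr1, which pairs with TLR2 for bacterial lipopeptides, was at 19.3, 11.6 and 11 RPKM in cDC1 and 73.3, 68.6 and 59.7 RPKM in cDC2 (-2.22 ± 0.20, adjusted p = 0.00011). Tlr5, the flagellin receptor, was at 7.21, 1.93 and 1.52 RPKM in cDC1 and 17.7, 16.4 and 10.2 RPKM in cDC2 (-1.97 ± 0.43, adjusted p = 0.0093). In each, cDC1 was below cDC2 with no overlap, and cDC1 replicate 1 was the highest of its subset. Unc93b1, which carries the nucleic acid receptors to endosomes, was at 374, 405 and 388 RPKM in cDC1 and 417, 361 and 355 RPKM in cDC2 and was not called (adjusted p = 0.78). Cd180, a TLR-like receptor of antigen-presenting cells, was at 103, 106 and 91.6 RPKM in cDC1 and 110, 97.9 and 95.5 RPKM in cDC2 (adjusted p = 0.93), and both genes overlapped between the subsets.

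Cytosolic sensors of nucleic acid were lower in cDC1 at 18 of 33 genes and higher at 2 (median -0.74). Ddx58, RIG-I, was at 2, 1.71 and 1.73 RPKM in cDC1 and 18.9, 19 and 16.8 RPKM in cDC2 (-2.77 ± 0.12, adjusted p = 4.1e-06). Oas2, which makes the messenger that activates RNase L, was at 0.941, 0.252 and 0.0782 RPKM in cDC1 and 21.8, 25.8 and 28.1 RPKM in cDC2 (-4.24 ± 0.22, adjusted p = 1.1e-05). Oas1a, of the same enzyme family, was at 1.54, 0.817 and 1.15 RPKM in cDC1 and 12.3, 20.8 and 23.7 RPKM in cDC2 (-3.17 ± 0.24). RIG-I and the OAS enzymes varied little among cDC1 libraries in absolute level, all being under 3 RPKM there. The 2 genes that were higher in cDC1 were Ifi205, an interferon-induced DNA-binding family member, at 121, 146 and 190 RPKM in cDC1 and 6.13, 19.8 and 23.8 RPKM in cDC2 (3.29 ± 0.43), and the OAS-like gene Oasl1. Oasl1 was at 7.48, 10.8 and 12.5 RPKM in cDC1 and 3.02, 3.39 and 4.5 RPKM in cDC2 (1.27 ± 0.20, adjusted p = 0.0021) while its paralogue Oasl2 was at 2.23, 1.65 and 2.4 RPKM in cDC1 and 19.6, 23.8 and 29.3 RPKM in cDC2 (-3.02 ± 0.17, adjusted p = 1.3e-05). Aim2, the inflammasome sensor of DNA, was at 70.6, 72.2 and 68.7 RPKM in cDC1 and 81.8, 68.4 and 63.2 RPKM in cDC2 and was not called (adjusted p = 0.98).

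Interferon stimulated genes were lower in cDC1 at 33 of 56 and higher at 9 (median -0.74). The 9 higher ones became 5, 4 and 4 without cDC1 replicate 2, cDC1 replicate 3 and cDC2 replicate 2. Ifitm3, which blocks the entry of enveloped viruses, was at 83.5, 53.5 and 88.3 RPKM in cDC1 and 490, 616 and 882 RPKM in cDC2 (-3.12 ± 0.25, adjusted p = 7.1e-05). Rtp4 was at 1.27, 0.404 and 1.64 RPKM in cDC1 and 20.6, 24.7 and 31.1 RPKM in cDC2 (-3.68 ± 0.25, adjusted p = 3.5e-05). Ifit3, of the family that binds foreign RNA and the gene whose promoter is shown above, was at 1.68, 0.681 and 0.877 RPKM in cDC1 and 14, 11 and 12.8 RPKM in cDC2 (-2.73 ± 0.20). Ifitm3 and Rtp4 were highest in cDC2 replicate 3 and Ifit3 was level across cDC2. Ifitm1 was at 2.27, 3.32 and 4.66 RPKM in cDC1 and 25, 38.2 and 64 RPKM in cDC2 (-3.23 ± 0.33), in the same order among the cDC2 libraries as the neutrophil RNA. Mx1, of a family of antiviral GTPases, was at 50.1, 59.5 and 46.4 RPKM in cDC1 and 17.9, 21.8 and 23.9 RPKM in cDC2 (1.25 ± 0.13, adjusted p = 0.00029). Epsti1 was at 214, 231 and 214 RPKM in cDC1 and 112, 96.4 and 99.5 RPKM in cDC2 (1.09 ± 0.09, adjusted p = 9.2e-05). Both were higher in each cDC1 library, against the direction of most of the list. Irf7, the factor that amplifies type I interferon, was at 50.9, 57.5 and 79.2 RPKM in cDC1 and 59.4, 81.2 and 100 RPKM in cDC2 and was not called (adjusted p = 0.27, 0.014 in the blocked fit).

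**Figure D3:**
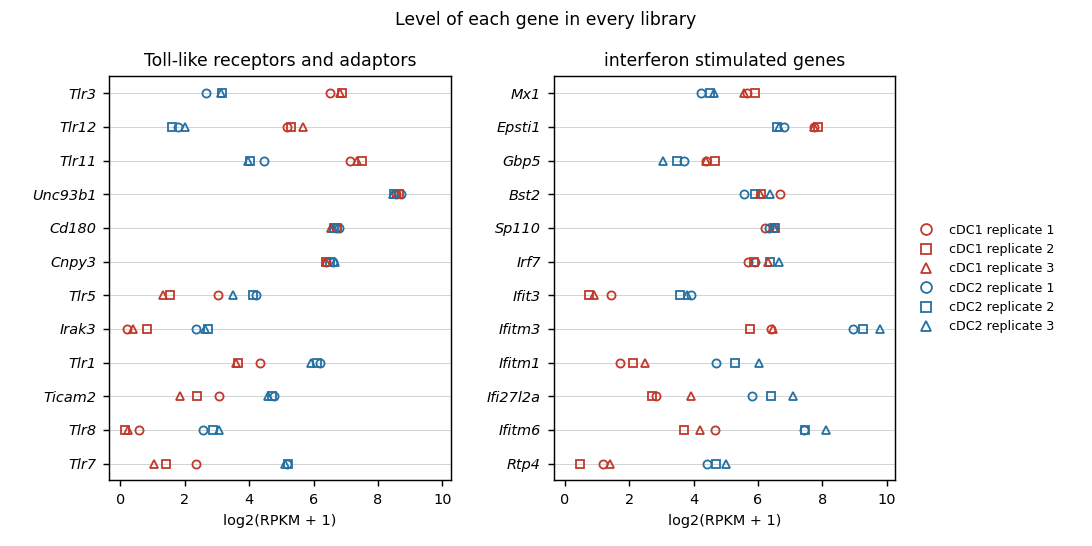
Toll-like receptors with their adaptors (left) and interferon stimulated genes (right), named by rule and ordered by difference. Each mark is log2(RPKM + 1) in 1 library, red for cDC1 and blue for cDC2. Tlr3, Tlr12 and Tlr11 are to the right in cDC1, Unc93b1 and Cd180 coincide, and Tlr7, Tlr8 and Tlr1 are to the right in cDC2, as are 6 of the 12 interferon stimulated genes plotted.

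Inflammasome genes were lower in cDC1 at 16 of 32 and higher at 5, the latter falling to 3 without cDC1 replicate 2 or without any one cDC2 library. Nlrc4, the sensor for flagellin and secretion systems, was at 4.35, 1.75 and 1.61 RPKM in cDC1 and 21, 16.2 and 13.2 RPKM in cDC2 (-2.38 ± 0.29, adjusted p = 0.00054). Casp1, which matures interleukin 1 beta, was at 30.9, 19 and 17.7 RPKM in cDC1 and 63, 67.5 and 76.3 RPKM in cDC2 (-1.61 ± 0.20). Its substrate Il1b was at 65.5, 43.5 and 76.4 RPKM in cDC1 and 245, 185 and 233 RPKM in cDC2 (-1.85 ± 0.20). Il1rn, the antagonist of the same receptor, was at 0.0331, 0.132 and 0.226 RPKM in cDC1 and 7.05, 9.42 and 10 RPKM in cDC2 (-3.11 ± 0.17, adjusted p = 1.1e-05). Sensor, enzyme, cytokine and antagonist were thus each lower in every cDC1 library. Nod1, a sensor of bacterial cell wall, was at 20.6, 16.8 and 14.9 RPKM in cDC1 and 65.5, 66.7 and 56.7 RPKM in cDC2 (-1.80 ± 0.13).

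MHC class I presentation was shifted the other way, with 22 of 48 genes higher in cDC1, 4 lower (7 in the blocked fit) and a median of 0.25. The heavy chains themselves were not called: H2-K1 was at 919, 946 and 910 RPKM in cDC1 and 969, 839 and 876 RPKM in cDC2 (adjusted p = 0.77). H2-D1 was at 549, 572 and 543 RPKM in cDC1 and 591, 498 and 529 RPKM in cDC2 (adjusted p = 0.79), and both overlapped between subsets. Tap2, a chain of the peptide pump into the endoplasmic reticulum, was at 171, 203 and 203 RPKM in cDC1 and 93.1, 89.9 and 99.6 RPKM in cDC2 (1.02 ± 0.10, adjusted p = 0.00018). Nlrc5, the transactivator of class I genes, was at 71.3, 95.5 and 68.6 RPKM in cDC1 and 27.5, 28.2 and 25.3 RPKM in cDC2 (1.49 ± 0.13, adjusted p = 0.00011). Both were higher in each cDC1 library. Wdfy4, which cDC1 need to cross-present cell-associated antigen, was at 363, 395 and 355 RPKM in cDC1 and 185, 169 and 129 RPKM in cDC2 (1.21 ± 0.14, adjusted p = 0.00042). Rab43, a GTPase with a part in cross-presentation, was at 267, 312 and 284 RPKM in cDC1 and 139, 129 and 123 RPKM in cDC2 (1.14 ± 0.10). Rab32, a GTPase of lysosome-related organelles, was at 95.4, 125 and 111 RPKM in cDC1 and 37.3, 42.9 and 48.6 RPKM in cDC2 (1.34 ± 0.13). These genes of antigen handling and trafficking differed by a similar amount, with no overlap between the subsets. Cd1d1, which presents lipids to NKT cells, was at 79.8, 86.6 and 70.3 RPKM in cDC1 and 20.3, 16.8 and 13 RPKM in cDC2 (2.19 ± 0.16, adjusted p = 4.3e-05). Tfeb, a regulator of lysosomes, was lower at 19.3, 15.7 and 14.7 RPKM in cDC1 and 54.5, 50.8 and 46 RPKM in cDC2 (-1.56 ± 0.12, adjusted p = 5.9e-05).

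Of 45 proteasome subunits 11 were higher in cDC1 and 1 lower (2 in the blocked fit, 0 without any 1 cDC1 library or without cDC2 replicate 2 or 3, median 0.17), and the higher ones numbered 5 to 6 without cDC1 replicate 2 or 3 or cDC2 replicate 1 or 2. Psmb9, an immunoproteasome subunit, was at 336, 414 and 486 RPKM in cDC1 and 195, 210 and 219 RPKM in cDC2 (0.97 ± 0.14, adjusted p = 0.0014). Psme1, of the activator cap PA28, was at 438, 502 and 590 RPKM in cDC1 and 274, 288 and 314 RPKM in cDC2 (0.80 ± 0.13, adjusted p = 0.0025). Both were higher in each cDC1 library. Psma2, a subunit of the constitutive core, was at 88.9, 98.9 and 123 RPKM in cDC1 and 87.8, 100 and 108 RPKM in cDC2 and was not called (adjusted p = 0.77).

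For MHC class II presentation 7 of 33 genes were higher and 12 lower, the higher ones numbering 3 to 4 without cDC1 replicate 3 or cDC2 replicate 1 or 2. Of the classical chains, H2-Aa was at 6487, 6602 and 7289 RPKM in cDC1 and 7446, 6695 and 7853 RPKM in cDC2 (adjusted p = 0.73). H2-Ab1 was at 6087, 6628 and 7492 RPKM in cDC1 and 6211, 5687 and 6511 RPKM in cDC2 (adjusted p = 0.67). Cd74, the invariant chain, was at 11741, 11875 and 12943 RPKM in cDC1 and 12585, 11169 and 12173 RPKM in cDC2 (adjusted p = 0.95). None of these 3 was called and all overlapped. Among the proteases and their inhibitors, Ctss, cathepsin S, which cuts the invariant chain, was at 460, 378 and 408 RPKM in cDC1 and 794, 888 and 971 RPKM in cDC2 (-1.09 ± 0.13, adjusted p = 0.00042). Cst3, cystatin C, an inhibitor of cysteine cathepsins, was at 5516, 7714 and 9123 RPKM in cDC1 and 999, 1294 and 1645 RPKM in cDC2 (2.50 ± 0.26, adjusted p = 0.00023). Ctsa, a lysosomal carboxypeptidase, was at 44.4, 32.8 and 32.1 RPKM in cDC1 and 138, 139 and 162 RPKM in cDC2 (-1.99 ± 0.14). Ctss and Ctsa were lower and Cst3 was higher in every cDC1 library. Ctsw, cathepsin W, went the other way from Ctss, at 5.68, 4.92 and 10.9 RPKM in cDC1 and 2.34, 2.96 and 4.14 RPKM in cDC2 (0.93 ± 0.28, adjusted p = 0.036, 0.07 without cDC1 replicate 3, 0.1 without cDC2 replicate 1 and 0.1 without cDC2 replicate 2). H2-DMb2, a chain of the peptide editor DM, was at 106, 63.9 and 66.1 RPKM in cDC1 and 268, 233 and 192 RPKM in cDC2 (-1.57 ± 0.21). H2-Eb2, a class II beta chain related to H2-Eb1, was at 26, 21.8 and 21.8 RPKM in cDC1 and 109, 91.9 and 72.5 RPKM in cDC2 (-1.91 ± 0.15), lower in each cDC1 library like H2-DMb2.

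Of 39 genes of the phagosomal oxidase and the proton pump, 7 were higher and 12 lower in cDC1. Cybb, the catalytic chain of NADPH oxidase, was at 62.7, 17.8 and 16.9 RPKM in cDC1 and 172, 186 and 178 RPKM in cDC2 (-2.69 ± 0.43, adjusted p = 0.0023), with cDC1 replicate 1 at more than 3 times its replicates. Rac2, a GTPase that activates the oxidase, was at 53, 59.3 and 65.8 RPKM in cDC1 and 140, 144 and 160 RPKM in cDC2 (-1.31 ± 0.11, adjusted p = 7.4e-05). Both were lower in each cDC1 library. The pump subunit Atp6v0a2 was at 51.7, 60.6 and 55.6 RPKM in cDC1 and 22.8, 24.7 and 26.9 RPKM in cDC2 (1.14 ± 0.10). The subunit Atp6v1f was at 123, 131 and 135 RPKM in cDC1 and 122, 132 and 135 RPKM in cDC2 and was not called (adjusted p = 1).

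Among ligands seen by T cells, 7 of 26 were higher and 10 lower. Cd86, a ligand of CD28, was at 133, 149 and 134 RPKM in cDC1 and 32, 35.9 and 32.3 RPKM in cDC2 (2.02 ± 0.09, adjusted p = 5.2e-06). Pvr, a ligand of CD226 and TIGIT, was at 20.9, 23.8 and 17.4 RPKM in cDC1 and 3.69, 4.02 and 4.48 RPKM in cDC2 (2.09 ± 0.14). Pdcd1lg2, PD-L2, was at 2.74, 1.97 and 1.54 RPKM in cDC1 and 13, 12.8 and 9.39 RPKM in cDC2 (-2.05 ± 0.19, adjusted p = 0.00013). Cd86 and Pvr were higher, and PD-L2 lower, in every cDC1 library. Tnfsf14, LIGHT, was at 1.51, 2.09 and 1.88 RPKM in cDC1 and 12.9, 9.56 and 13.2 RPKM in cDC2 (-2.18 ± 0.16). Icosl, the ligand of ICOS, was at 234, 201 and 152 RPKM in cDC1 and 214, 163 and 154 RPKM in cDC2 and was not called (adjusted p = 0.61).

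Cytokine genes numbered 5 higher and 8 lower of 24, the higher ones becoming 3 without replicate 2 of either subset or without cDC1 replicate 3. Il12b, the p40 subunit of interleukins 12 and 23, was at 39.7, 48.3 and 54.8 RPKM in cDC1 and 2.52, 1.32 and 0.866 RPKM in cDC2 (4.28 ± 0.23, adjusted p = 1.1e-05). Il15, which sustains memory CD8 T cells and NK cells, was at 23.4, 23.9 and 19.4 RPKM in cDC1 and 6.57, 4.3 and 3.83 RPKM in cDC2 (adjusted p = 0.00012). Both were higher in each cDC1 library. Ltb, a chain of the lymphotoxin that maintains spleen architecture, was at 80.3, 30.4 and 39.5 RPKM in cDC1 and 190, 167 and 140 RPKM in cDC2 (-1.82 ± 0.31, adjusted p = 0.0032). Flt3l, the growth factor of dendritic cells, was at 8.52, 6.03 and 8.65 RPKM in cDC1 and 18.5, 19.5 and 18.5 RPKM in cDC2 (-1.20 ± 0.14). Tnf was at 63.2, 81 and 90.4 RPKM in cDC1 and 89.4, 63.6 and 49.2 RPKM in cDC2 and was not called (adjusted p = 0.45).

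Cytokine and growth factor receptors were called at 15 genes higher and 22 lower of 69. Csf1r, the receptor for macrophage colony-stimulating factor, was at 32.5, 12.7 and 21.5 RPKM in cDC1 and 169, 204 and 230 RPKM in cDC2 (-3.20 ± 0.29, adjusted p = 0.00012). Csf3r, that for granulocyte colony-stimulating factor, was at 1.8, 0.535 and 0.925 RPKM in cDC1 and 21.6, 33.1 and 29.4 RPKM in cDC2 (-3.82 ± 0.24, adjusted p = 2.4e-05). Csf2ra, a chain of the receptor for the granulocyte-macrophage factor, was at 265, 331 and 311 RPKM in cDC1 and 270, 287 and 285 RPKM in cDC2 and was not called (adjusted p = 0.52). Of the receptors for the colony-stimulating factors, 2 were therefore lower in cDC1 and this one overlapped. Il1r2, a decoy receptor for interleukin 1, was at 0.27, 0.607 and 0.0767 RPKM in cDC1 and 8.9, 9.04 and 10.2 RPKM in cDC2 (-2.99 ± 0.18). Il6ra was at 29.4, 23.4 and 23.2 RPKM in cDC1 and 79.7, 74.1 and 68.7 RPKM in cDC2 (-1.52 ± 0.11). Both were lower in each cDC1 library, Il1r2 to under 1 RPKM. Fzd1, a Wnt receptor, was at 21.7, 26.3 and 24.7 RPKM in cDC1 and 0.372, 0.535 and 0.569 RPKM in cDC2 (4.08 ± 0.13, adjusted p = 1.5e-06). Igf2r, which carries lysosomal enzymes marked by mannose 6-phosphate, was at 7.63, 11.7 and 12.7 RPKM in cDC1 and 0.353, 0.68 and 0.747 RPKM in cDC2 (2.85 ± 0.21). Tnfrsf4, OX40, was at 29.5, 35.1 and 24.9 RPKM in cDC1 and 7.34, 4.36 and 4.59 RPKM in cDC2 (2.28 ± 0.20), higher in each cDC1 library like Fzd1 and Igf2r.

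Genes known from mature and migratory dendritic cells were mostly higher in cDC1, 24 of 38 against 2 lower, with a median of 1.69. The summed level of the list was 8544 to 12342 RPKM in cDC1 and 2545 to 2962 RPKM in cDC2, and such a sum mostly reflects its most abundant genes. Mean log2(RPKM + 1) over the list was 5.43, 5.61 and 5.44 in cDC1 and 4.22, 3.77 and 3.78 in cDC2. Serpinb6b, a serpin, was at 118, 164 and 170 RPKM in cDC1 and 13.4, 8.12 and 7.13 RPKM in cDC2 (3.87 ± 0.23, adjusted p = 1.6e-05). Serpinb9, an inhibitor of granzyme B, was at 67, 94.7 and 87.2 RPKM in cDC1 and 7.36, 5.85 and 6.2 RPKM in cDC2 (3.48 ± 0.15, adjusted p = 4.1e-06). Both serpins were several-fold higher in each cDC1 library. Bcl2l14, a BCL2 family member, was at 38.9, 54.8 and 56.3 RPKM in cDC1 and 3.13, 1.6 and 3.55 RPKM in cDC2 (3.78 ± 0.23). Arc, known from neurons for its capsid-like particles, was at 21.4, 32.3 and 22.3 RPKM in cDC1 and 0.986, 0.489 and 0.578 RPKM in cDC2 (3.96 ± 0.19). Each of these 4 was highest in cDC1 replicate 2 or 3. Of the 39 names of the list 23 stand in another list too, and it includes Il12b and Ccl22, which resting cDC1 are also known to express. Stat4, the transducer of interleukin 12 signals, was at 8.21, 4.58 and 6.02 RPKM in cDC1 and 17.2, 14.6 and 15.2 RPKM in cDC2 (-1.23 ± 0.18, adjusted p = 0.0015), against the direction of the list.

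Genes of the Notch and noncanonical NF-kB pathways, on which splenic dendritic cells depend, were called at 6 genes higher and 12 lower of 36. Among receptors, Notch4 was at 33.1, 45.3 and 35.4 RPKM in cDC1 and 2.14, 2.5 and 2.29 RPKM in cDC2 (3.55 ± 0.14, adjusted p = 2.9e-06). Among ligands, Jag2 was at 6.23, 9.55 and 10.6 RPKM in cDC1 and 0.349, 0.235 and 0.436 RPKM in cDC2 (2.84 ± 0.20, adjusted p = 4e-05). The Notch target Hes1 was at 15.9, 16.9 and 20.2 RPKM in cDC1 and 33, 28.2 and 32.5 RPKM in cDC2 (-0.79 ± 0.12, adjusted p = 0.0014), and the target Nrarp at 0.705, 0.669 and 0.601 RPKM in cDC1 and 1.6, 2.19 and 3.12 RPKM in cDC2 (-0.97 ± 0.20, adjusted p = 0.007). The adjusted p of Nrarp was 0.082 in the blocked fit without title run 3. A receptor and a ligand were thus higher, and these targets lower, in every cDC1 library, as was Dtx1 above. Nfkb2, the core of the noncanonical pathway, was at 81.9, 72.3 and 67.8 RPKM in cDC1 and 90.1, 90.8 and 82.5 RPKM in cDC2 and was not called (adjusted p = 0.091, 0.032 in the blocked fit and 0.034 without cDC1 replicate 1).

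Semaphorins, plexins and related guidance receptors, named for their work in axon growth, were called at 5 genes higher and 7 lower of 16 tested. Sema4f was at 14.8, 20.6 and 19.4 RPKM in cDC1 and 1.68, 1.87 and 1.42 RPKM in cDC2 (2.85 ± 0.15, adjusted p = 1.1e-05). Sema4c was at 10.5, 10.3 and 9.27 RPKM in cDC1 and 1.05, 1.06 and 1.27 RPKM in cDC2 (2.37 ± 0.13). Sema4d, CD100, was at 52.1, 40.5 and 38 RPKM in cDC1 and 142, 129 and 109 RPKM in cDC2 (-1.52 ± 0.15, adjusted p = 0.00015). Members of the class 4 semaphorins were thus called in both directions without overlap. Plxnd1, a semaphorin receptor, was at 9.37, 5.8 and 5.72 RPKM in cDC1 and 49.4, 42.8 and 41.8 RPKM in cDC2 (-2.55 ± 0.18). Cd72, a receptor for Sema4d, was at 5.69, 3.9 and 3.66 RPKM in cDC1 and 37.3, 34.6 and 34.2 RPKM in cDC2 (-2.77 ± 0.15, adjusted p = 1.1e-05). Both receptors were lower in each cDC1 library, as was Sema4d.

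Calcium and other ion channels were called at 11 genes higher and 8 lower of 45, the lower ones becoming 4, 5 and 4 without cDC1 replicate 2, cDC1 replicate 3 and cDC2 replicate 2. Cacnb3, a subunit of voltage-gated calcium channels, was at 192, 267 and 193 RPKM in cDC1 and 50.2, 23.3 and 19.8 RPKM in cDC2 (2.87 ± 0.32, adjusted p = 0.00032). Cacna1e, a pore-forming chain of such channels, was at 32.7, 32.9 and 28.6 RPKM in cDC1 and 8.36, 4.18 and 3.29 RPKM in cDC2 (2.45 ± 0.26). Trpm2, a cation channel opened by ADP-ribose, was at 99.6, 136 and 132 RPKM in cDC1 and 28.1, 20.9 and 18.9 RPKM in cDC2 (2.39 ± 0.17, adjusted p = 4.3e-05). These 3 were higher in each cDC1 library, and the channel subunits Cacnb3 and Cacna1e were both highest, within cDC2, in replicate 1. Ryr3, a channel of intracellular calcium stores, was at 0.676, 0.0705 and 0.0668 RPKM in cDC1 and 7.62, 8.36 and 3.99 RPKM in cDC2 (-2.57 ± 0.29, adjusted p = 0.00035). Hvcn1, a proton channel that supports the NADPH oxidase, was at 4.55, 2.79 and 2.28 RPKM in cDC1 and 13.4, 11.7 and 10.1 RPKM in cDC2 (-1.63 ± 0.21), lower in each cDC1 library like the oxidase genes above.

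Lipid mediator and retinoid enzymes were mostly lower in cDC1, 20 of 37 against 5 higher (median -0.43). The 5 higher ones were 8 without cDC1 replicate 1, 2 without cDC1 replicate 2 and 3 without cDC2 replicate 2. Pla2g7, which degrades platelet-activating factor, was at 1.28, 1.85 and 4.04 RPKM in cDC1 and 40.8, 58.5 and 63.7 RPKM in cDC2 (-4.09 ± 0.29, adjusted p = 4.3e-05). Cyp4f18, which inactivates leukotriene B4, was at 4.32, 1.92 and 3.57 RPKM in cDC1 and 42.2, 47 and 66.8 RPKM in cDC2 (-3.65 ± 0.25, adjusted p = 3.4e-05). Hpgd, which inactivates prostaglandins, was at 8.66, 5.54 and 6.6 RPKM in cDC1 and 64.1, 59.3 and 59.5 RPKM in cDC2 (-2.98 ± 0.14, adjusted p = 7.4e-06). These enzymes of mediator breakdown were lower in each cDC1 library. Naaa, a lysosomal amidase that cleaves palmitoylethanolamide, was at 624, 906 and 963 RPKM in cDC1 and 51.5, 104 and 128 RPKM in cDC2 (3.19 ± 0.32, adjusted p = 0.00021). Mgll, which cleaves monoacylglycerols, was at 3.37, 3.66 and 4.29 RPKM in cDC1 and 0.115, 0.387 and 0.307 RPKM in cDC2 (1.91 ± 0.17), higher in each cDC1 library as was Naaa.

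Glycolysis genes were called at 8 genes higher and 14 lower of 39, the lower ones becoming 9 without cDC2 replicate 2, and isozymes divided between the subsets. Hk3, a hexokinase of myeloid cells, was at 42.5, 66.3 and 57.7 RPKM in cDC1 and 4.25, 7.71 and 8.81 RPKM in cDC2 (2.86 ± 0.25, adjusted p = 0.00011). Eno2 was at 21.3, 23.1 and 19.5 RPKM in cDC1 and 3.54, 2.79 and 3.1 RPKM in cDC2 (2.43 ± 0.12, adjusted p = 8.4e-06), and the enolase Eno3 at 45.9, 51.1 and 43.8 RPKM in cDC1 and 110, 90.7 and 105 RPKM in cDC2 (-1.10 ± 0.10, adjusted p = 0.00015). Pfkfb3, which makes the activator of phosphofructokinase, was at 139, 148 and 122 RPKM in cDC1 and 55.2, 35.6 and 35.4 RPKM in cDC2 (1.70 ± 0.18), and its isozyme Pfkfb4 at 3.94, 3.48 and 3.25 RPKM in cDC1 and 17.1, 18.3 and 24.9 RPKM in cDC2 (-2.20 ± 0.16). Each pair of isozymes had one member higher and one lower in every cDC1 library. The transporters named were lower in each cDC1 library. Slc2a3, a glucose transporter, was at 16, 4.08 and 4.64 RPKM in cDC1 and 46.5, 36.9 and 27.3 RPKM in cDC2 (-2.24 ± 0.43), and Slc16a3, a lactate exporter, at 3.03, 1.72 and 2.84 RPKM in cDC1 and 15.8, 14.8 and 18.5 RPKM in cDC2 (-2.31 ± 0.18). Gapdh was at 138, 178 and 166 RPKM in cDC1 and 148, 163 and 183 RPKM in cDC2 and was not called (adjusted p = 0.84).

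Cholesterol genes showed 8 higher and 14 lower of 46, which became 5 and 9 without cDC2 replicate 2, 5 higher without cDC1 replicate 2 and 9 lower without cDC1 replicate 3. Hmgcs1, an early enzyme of synthesis, was at 31.1, 28.2 and 27.7 RPKM in cDC1 and 26.5, 37.2 and 34.4 RPKM in cDC2 and was not called (adjusted p = 0.41). Of 74 respiratory chain subunits limma called 6 higher and 0 lower (8 and 1 at an unadjusted p under 0.05, 5 and 0 with voom), with a median of 0.08. It had 11 and 2 in the blocked fit, and 0 or 1 higher without cDC1 replicate 2 or 3 or cDC2 replicate 1 or 2. Of 78 ribosomal protein genes limma called 0 (2 higher and 0 lower at an unadjusted p under 0.05, 1 and 0 with voom), and 13 higher and 3 lower in the blocked fit. Over the 79 ribosomal protein genes listed, tested or not, mean log2(RPKM + 1) moved with the run in both subsets. It was 9.47, 9.48 and 9.88 in cDC1 and 9.33, 9.51 and 9.78 in cDC2.

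The secretory pathway and unfolded protein response were mostly higher in cDC1, 26 of 51 against 3 lower, with a median of 0.34. The higher ones numbered 15 without cDC1 replicate 2 and 17 without cDC2 replicate 2. Pdia5, a disulphide isomerase, was at 95.3, 113 and 111 RPKM in cDC1 and 4.63, 6.52 and 6.31 RPKM in cDC2 (3.99 ± 0.14, adjusted p = 1.6e-06). Pdia3, which works in class I peptide loading, was at 290, 337 and 343 RPKM in cDC1 and 155, 172 and 179 RPKM in cDC2 (0.93 ± 0.11, adjusted p = 0.00039). Hsp90b1, the chaperone of Toll-like receptors and integrins, was at 309, 375 and 366 RPKM in cDC1 and 153, 191 and 177 RPKM in cDC2 (1.01 ± 0.12, adjusted p = 0.0005). Pdia5 stood out in size, while the others differed by about 2-fold in each run. Atf6, a sensor of unfolded protein, was at 20.8, 18.3 and 17.3 RPKM in cDC1 and 34.6, 35.3 and 34.2 RPKM in cDC2 (-0.85 ± 0.10, adjusted p = 0.00035), lower in each cDC1 library. Atf4, the factor of the integrated stress response, was at 93, 90.4 and 105 RPKM in cDC1 and 95.1, 94 and 99.3 RPKM in cDC2 and was not called (adjusted p = 0.99).

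Cell cycle genes were called at 4 higher and 5 lower of 58 (the higher ones were 11 without cDC1 replicate 1 and 1 or 2 without cDC1 replicate 2 or 3 or cDC2 replicate 1 or 2, and the lower ones 9 in the blocked fit and 8 without cDC2 replicate 1). The called share of this list, 15.5%, was below the 32.4% over all genes tested. Ccnd1, cyclin D1, was at 59.9, 43.1 and 46.3 RPKM in cDC1 and 183, 163 and 147 RPKM in cDC2 (-1.71 ± 0.14, adjusted p = 7.9e-05). E2f2 was at 4.7, 6.62 and 6.68 RPKM in cDC1 and 23.1, 25.3 and 23.9 RPKM in cDC2 (-1.86 ± 0.14, adjusted p = 4.7e-05). Cdkn1a, the inhibitor p21, was at 24.8, 26.5 and 28.9 RPKM in cDC1 and 11.2, 8.09 and 10.3 RPKM in cDC2 (1.36 ± 0.13, adjusted p = 0.00016). These regulators of entry into the cycle differed in each run, while the replication factor Pcna was at 112, 119 and 138 RPKM in cDC1 and 122, 120 and 146 RPKM in cDC2 and was not called (adjusted p = 0.65). Of 26 BCL2 family and apoptosis genes, 6 were higher (10 in the blocked fit) and 5 lower, the lower ones becoming 1 to 2 without any one library other than cDC1 replicate 1. Bcl2l11, the death-inducing BIM, was at 12.3, 13.7 and 12.5 RPKM in cDC1 and 5.11, 4.94 and 4.45 RPKM in cDC2 (1.25 ± 0.11, adjusted p = 0.00011). Bmf, a related death inducer, was at 15.3, 15.3 and 12 RPKM in cDC1 and 28.3, 23.1 and 24.2 RPKM in cDC2 (-0.79 ± 0.13, adjusted p = 0.0023).

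**Figure D4:**
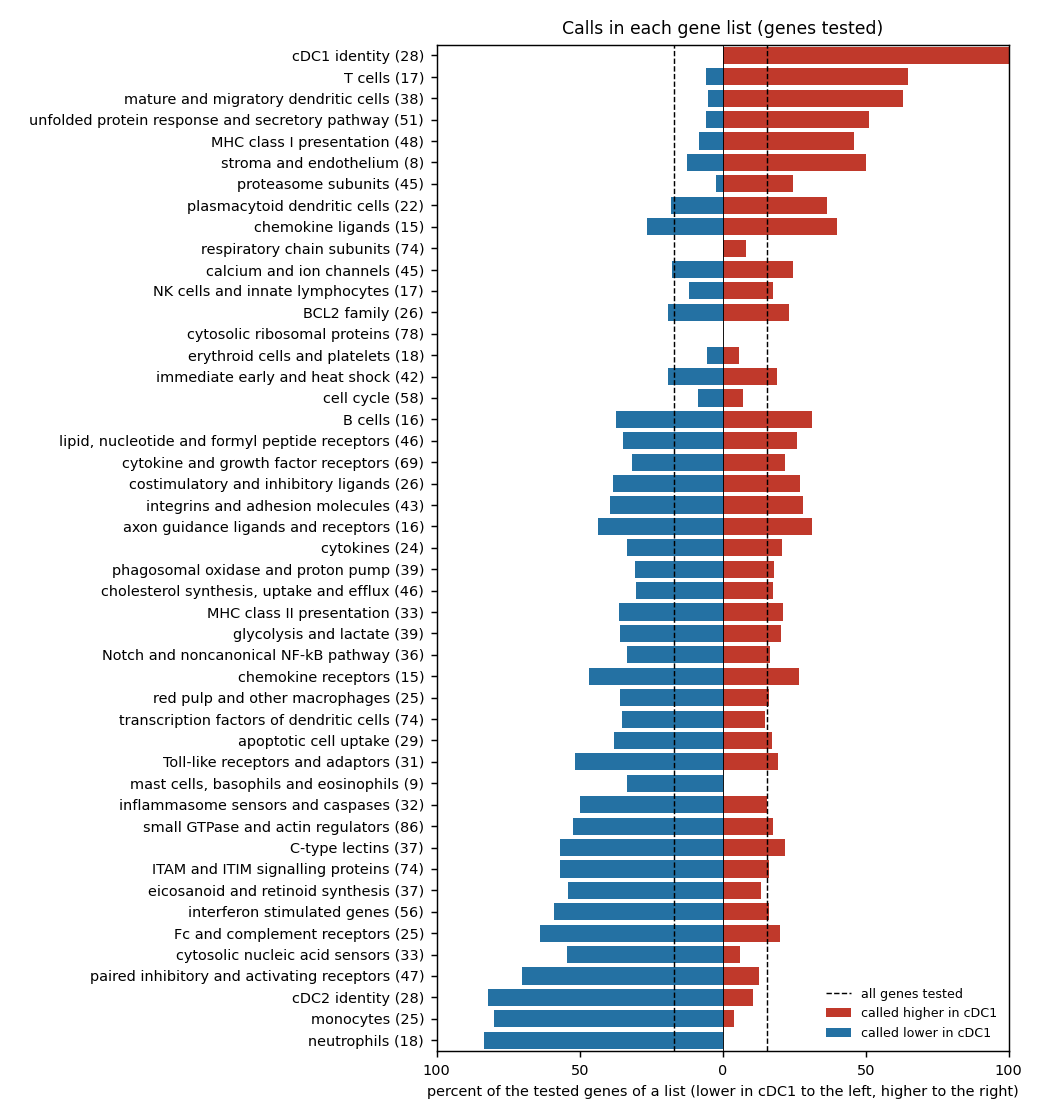
Share of the tested genes of each list called higher (red, to the right) or lower (blue, to the left) in cDC1, with the number of tested genes in brackets, ordered by the net share. The dashed lines mark the shares over all genes tested, 15.3% higher and 17.1% lower. The lists of cDC1 identity, T cells and mature dendritic cells reach farthest right, and those of neutrophils, cDC2 identity and monocytes farthest left.

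Transcripts of other spleen cells were measured beside these results, and their part in them was not tested. Of 18 neutrophil genes tested, 15 were lower in cDC1 and limma called 0 higher (median -2.95; 0 higher at an unadjusted p under 0.05 and with voom). The lower ones became 9 without cDC2 replicate 2 and 8 with voom. The list summed to 18.9 to 56.0 RPKM in cDC1 and to 207 to 1739 RPKM in cDC2. S100a8 was at 1.62, 6.48 and 14.2 RPKM in cDC1 and 60.2, 345 and 632 RPKM in cDC2, so the cDC2 libraries differed 10-fold among themselves, and its call was lost with voom on recovered reads (adjusted p = 0.068). Of 25 monocyte genes, 20 were lower and 1 higher (median -2.81), with sums of 878 to 1210 RPKM in cDC1 and 2746 to 4471 RPKM in cDC2. Lyz2, lysozyme M, was at 88.2, 84 and 116 RPKM in cDC1 and 698, 1176 and 1462 RPKM in cDC2 (-3.47 ± 0.26, adjusted p = 5.1e-05). Lyz2 was thus lower in every cDC1 library, with cDC2 replicate 1 the lowest of its subset, as for the neutrophil genes. Ly6c2, which defines classical monocytes, was at 45.6, 23.8 and 40 RPKM in cDC1 and 5.83, 22.7 and 39.4 RPKM in cDC2 and was not called (adjusted p = 0.26), so this defining marker did not follow the rest of its list. The ranges of Ly6c2 overlapped, and cDC2 replicate 1 was the lowest library of all. Treml4, a receptor of non-classical monocytes that binds dead cells, was at 95.7, 99.3 and 111 RPKM in cDC1 and 54, 62.1 and 69.1 RPKM in cDC2 (0.72 ± 0.11, adjusted p = 0.0019). Of the 28 monocyte names 14 stand in another list too, among them Csf1r and Ccr2 of the cDC2 identity list, and of the 27 macrophage names 18 do. Of 25 macrophage genes, 4 were higher and 9 lower, with sums of 770 to 906 and 1180 to 1437 RPKM. Vcam1, an adhesion molecule of red pulp macrophages, was at 31, 22.7 and 22.4 RPKM in cDC1 and 9.92, 5.56 and 7.5 RPKM in cDC2 (1.62 ± 0.20, adjusted p = 0.00062), and Marco and Siglec1 were under 1 RPKM in all 6 libraries.

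Of 17 genes of T cells, limma called 11 higher in cDC1 and 1 lower (median 0.93), with sums of 91.5 to 148 RPKM in cDC1 and 50.2 to 71.5 RPKM in cDC2. Cd3e, a chain of the T cell receptor complex, was at 5.69, 3.79 and 6.18 RPKM in cDC1 and 0.984, 0.906 and 2.85 RPKM in cDC2 (1.33 ± 0.29, adjusted p = 0.01). Cd8b1, the CD8 beta chain, was at 8.91, 9.54 and 12.8 RPKM in cDC1 and 0.307, 0.368 and 0.34 RPKM in cDC2 (3.08 ± 0.16, adjusted p = 1e-05), against 306, 344 and 346 RPKM of Cd8a in the same cDC1 libraries. Both were higher in each cDC1 library, Cd8b1 at a small share of the level of Cd8a. Cd5, an inhibitory receptor that some cDC2 also carry, was at 6.32, 4.69 and 7.68 RPKM in cDC1 and 13.2, 10.5 and 12.1 RPKM in cDC2 (-0.86 ± 0.17, adjusted p = 0.0063), the reverse of the list. Of 16 B cell genes, 5 were higher and 6 lower, the higher ones becoming 3 without cDC1 or cDC2 replicate 2, with sums of 90.7 to 121 and 157 to 191 RPKM. Cd22, a sialic acid receptor, was at 5.87, 5.59 and 5.16 RPKM in cDC1 and 64, 68.6 and 58 RPKM in cDC2 (-3.30 ± 0.10, adjusted p = 1.2e-06), whereas Ms4a1, CD20, was at 12.7, 15 and 13.3 RPKM in cDC1 and 5.23, 2.91 and 1.8 RPKM in cDC2 (1.84 ± 0.26, adjusted p = 0.0013).

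Plasmacytoid dendritic cell genes were called at 8 higher and 4 lower of 22, the higher ones becoming 5 without cDC1 replicate 3 and 4 without cDC2 replicate 2, with sums of 329 to 505 and 388 to 459 RPKM. Siglech, the lectin that defines these cells, was at 16.8, 4.35 and 4.98 RPKM in cDC1 and 0.613, 0.664 and 0.777 RPKM in cDC2 (2.30 ± 0.41, adjusted p = 0.0039), more than 3-fold higher in cDC1 replicate 1 than in the other cDC1 libraries. NK cell genes were called at 3 higher and 2 lower of 17 (5 and 2 in the blocked fit, and 1 higher without cDC1 replicate 3 or cDC2 replicate 2), with sums of 574 to 635 and 484 to 760 RPKM. The called share of the NK cell list, 29.4%, was near the 32.4% over all genes tested. Klrd1, CD94, was at 104, 31.9 and 38.5 RPKM in cDC1 and 174, 150 and 173 RPKM in cDC2 (-1.69 ± 0.38, adjusted p = 0.011). Of 18 erythroid and platelet genes, 1 was higher and 1 lower, with sums of 87.5 to 315 RPKM in cDC1 and 95.9 to 102 RPKM in cDC2. By run, 7 genes were higher in the blocked fit and 15 without cDC1 replicate 1. Slc4a1, the anion exchanger of red cells, was at 0.379, 39.6 and 28.5 RPKM in cDC1 and 0.0956, 4.19 and 2.03 RPKM in cDC2, low in replicate 1 of both subsets (adjusted p = 0.21, 0.025 with the block and 0.0021 without cDC1 replicate 1). Mast cell, basophil and eosinophil genes were called by limma at 0 higher and 3 lower of 9 (1 and 3 at an unadjusted p under 0.05, 0 and 3 with voom), with Cpa3, Fcer1a and Ms4a2 under 1 RPKM in all 6 libraries. Stroma and endothelium genes were called at 4 higher and 1 lower of 8, the lower one becoming 0 without cDC1 replicate 2 or any one cDC2 library, and collagen genes Col1a1, Col1a2 and Col3a1 were under 1 RPKM in all 6.

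Early response and heat shock genes were called at 8 higher and 8 lower of 42, and at 14 and 17 in the blocked fit. Without cDC1 replicate 2 the counts were 5 and 3, without cDC1 replicate 3 the lower ones were 4, and without cDC2 replicate 2 the higher ones were 5. Nr4a1, an orphan nuclear receptor induced within minutes of stimulation, was at 168, 73.7 and 80.2 RPKM in cDC1 and 471, 231 and 228 RPKM in cDC2 (-1.54 ± 0.37, adjusted p = 0.015, 0.062 without cDC1 replicate 2 and 0.055 without cDC1 replicate 3). Zfp36, which destabilises cytokine messages, was at 750, 452 and 421 RPKM in cDC1 and 1271, 761 and 739 RPKM in cDC2 and was not called (adjusted p = 0.068, 0.0002 with the block and 0.015 without cDC1 replicate 1, 0.047 with voom). Both were highest in replicate 1 of either subset. Socs3, an inhibitor of cytokine signalling, was at 4.77, 2.83 and 5.07 RPKM in cDC1 and 20.8, 26.9 and 30.1 RPKM in cDC2 (-2.38 ± 0.21, adjusted p = 0.0001). Gadd45b, a stress-induced regulator, was at 124, 144 and 136 RPKM in cDC1 and 76.8, 45.7 and 51.3 RPKM in cDC2 (1.24 ± 0.18, adjusted p = 0.0014), higher in each cDC1 library.

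**Figure D5:**
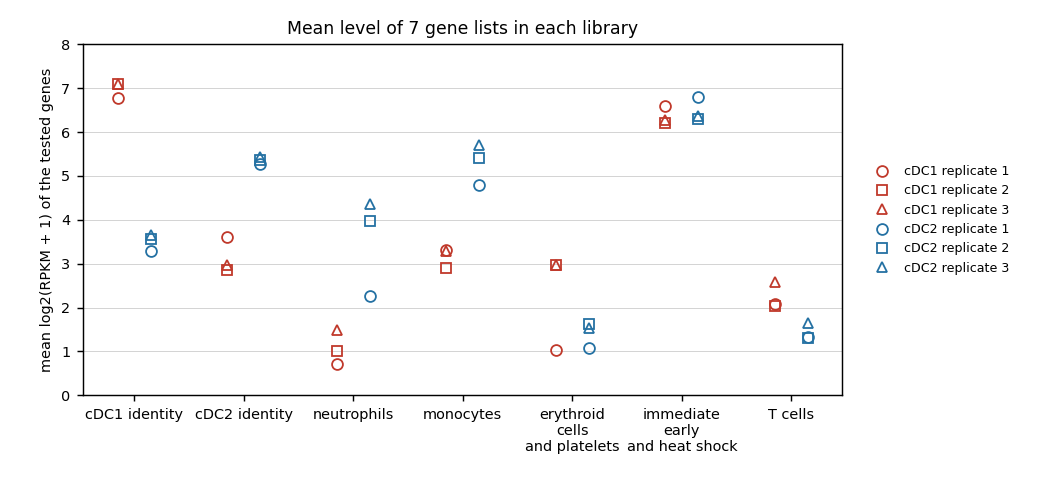
Mean log2(RPKM + 1) in each library over all genes of 7 lists that were present in the deposited data, red for cDC1 and blue for cDC2. Genes below the filter are included, although the axis title names the tested genes. The cDC2 identity list is at 3.60 in cDC1 replicate 1 against 2.86 and 2.97 in the other cDC1 libraries, the neutrophil list at 2.27 in cDC2 replicate 1 against 3.98 and 4.36, and the erythroid list at 1.04 in cDC1 replicate 1 against 2.97 and 2.96.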

How the data were processed

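RNA of 9 mouse spleen libraries was sequenced, and the authors deposited a table of 14862 genes with 1 value for each library. The files do not name the unit. The deposited values were read as RPKM because they are whole multiples of what 1 read is worth in a gene, and whole reads were recovered from 100% of the nonzero values (tolerance 0.001 reads). The build is mm8, per the submitters' processing notes, and the aligner and counter are not given in the sources used here. Single-library files, held for 8 libraries, equal the table, and 0 columns of the table were unused.

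The 3 cDC1 and 3 cDC2 libraries were compared on log2(RPKM + 1) with limma 3.58.1 in R 4.3.3 (eBayes with trend, 2 groups, two-sided, Benjamini-Hochberg over 11518 genes, threshold 0.05). Tables and figures used Python 3.11.15, numpy 2.4.6, pandas 2.3.3 and matplotlib 3.10.9. On simulated data of 11326 genes the fit recovered 75% of 2-fold and 96% of 4-fold changes, and 6.56% of its calls were false. Only 200 genes were changed there, all drawn from genes with a mean of at least 5 RPKM, whereas 32.4% were called in the data. Noise was drawn separately for each library, without a shared title run, so these percentages may not hold for the data. The 2 libraries of a title run deviated from their subset means together, with correlations of 0.372, 0.167 and 0.484 in the 3 runs. Between runs the correlations were -0.446 to 0.021, all over 8263 genes with a mean of at least 5 RPKM. The reason for this is unknown. The block was therefore fitted as an alternative. Calls given without naming another fit ignore the title runs. The block called 851 genes that the main fit did not, and 61 were called only without it. A gene given as not called may thus be called once the runs are paired. Other alternatives changed the pseudocount, the filter, the scaling, the prior, the libraries fitted, or used voom on the recovered reads.

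The comparison and its 47 gene lists were chosen with earlier results of these data known. Of their 2070 names 94.2% matched the table. Genes named in the text were taken from the 5 markers, the largest differences, each gene list and the most abundant called genes. The largest differences are 15 called genes in each direction, at 10 RPKM or more in every library of the higher subset. They were required not to overlap between the subsets, and predicted genes and genes of the X and Y chromosomes were left out. Each list gave up to 6, 3 and 3 genes (commoner direction, other direction, not called). The most abundant called genes are 10 in each direction. Genes named as under 1 RPKM in all 6 libraries, and a few in the closing section, were picked after their values were seen. A few genes that this rule names are not reported here. Promoters came from RefSeq tables of GRCm38.p6, in which 14847 Entrez numbers were found, and no coordinate of the deposited files was used.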

Additional observations from a re-analysis of the deposited data

How the results depend on the processing

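With the title run as a replicate block 4521 genes were called, against 3731 without it. Fitting all 9 libraries together gave 2371 calls, 1074 higher and 1297 lower in cDC1, and moved 22 of the 94 list counts to fewer by over 1.5 times; the cause was not tested. Leaving out 1 library gave 2576 to 4002 calls, and the blocked fit without 1 title run gave 2906 to 4982. The pseudocount, filter, scaling, prior and voom alternatives gave 2952 (5 RPKM filter, which tests fewer genes) to 3831 (quantile normalization). No called gene that could be fitted changed sign in any of these settings. The block, the 9-library fit, the filters and the prior leave a gene's difference as it was, so no sign could change there. The other settings reuse libraries that gave the calls, so the kept signs are not independent support. Of 494 named genes the block ended the call of 2 and gave one to 51. Depth limits genes of low level: 1 read in 1 kb was worth up to 0.109 RPKM, so in short genes values under 1 RPKM rest on few reads. Longer genes collect more reads at the same RPKM. Igf2r, at 0.353 to 0.747 RPKM in cDC2, had 29 to 83 reads in those libraries. With 3 libraries a subset, a gene that was not called was not shown to be alike.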

Other observations

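Among the 10 most abundant genes called higher in cDC1, Ppt1, palmitoyl-protein thioesterase, was at 1118, 1407 and 1391 RPKM in cDC1 and 67.6, 91.6 and 102 RPKM in cDC2 (3.90 ± 0.17, adjusted p = 4.2e-06 in limma). Psap, the precursor of the saposins that help degrade lipids, was at 3218, 4127 and 4323 RPKM in cDC1 and 1340, 1540 and 2017 RPKM in cDC2 (1.26 ± 0.21, adjusted p = 0.0026). Plbd1, a phospholipase of lysosomes, was at 1143, 1279 and 1321 RPKM in cDC1 and 692, 701 and 806 RPKM in cDC2 (0.77 ± 0.13). Mpeg1, perforin-2, a pore-forming protein of phagocytes, was at 1077, 1275 and 1267 RPKM in cDC1 and 163, 250 and 297 RPKM in cDC2 (2.38 ± 0.21, adjusted p = 0.00011). Each was higher in every cDC1 library, and Ppt1 differed by far more than the other 3. Eef1b2, a subunit of the translation elongation factor 1 complex, was at 669, 736 and 899 RPKM in cDC1 and 265, 304 and 364 RPKM in cDC2 (1.30 ± 0.16). Ucp2, an uncoupling protein of mitochondria, was at 935, 1093 and 1068 RPKM in cDC1 and 653, 688 and 694 RPKM in cDC2 (0.60 ± 0.12). Malat1, a nuclear long noncoding RNA, was at 806, 875 and 837 RPKM in cDC1 and 352, 308 and 237 RPKM in cDC2 (1.50 ± 0.15, adjusted p = 0.00021), higher in each cDC1 library.

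Among the abundant genes lower in cDC1, S100a4, a calcium-binding protein, was at 228, 74.2 and 102 RPKM in cDC1 and 817, 1047 and 1199 RPKM in cDC2 (-3.06 ± 0.37, adjusted p = 0.00051), with cDC1 replicate 1 over 2-fold above the other cDC1 libraries. Coro1a, an actin-binding protein, was at 532, 524 and 537 RPKM in cDC1 and 771, 826 and 916 RPKM in cDC2 (-0.65 ± 0.11). Ifi30, a thiol reductase that opens disulphide bonds of antigens in lysosomes, was at 735, 628 and 656 RPKM in cDC1 and 911, 1059 and 1203 RPKM in cDC2 (-0.65 ± 0.14, adjusted p = 0.0094, 0.053 without cDC1 replicate 2). Each of these was lower in every cDC1 library.

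Of the called genes, 14 were at 10 RPKM or more in every cDC1 library and under 1 RPKM in every cDC2 library, and 9 the reverse. The cDC1 set included Ptgis, prostacyclin synthase, at 16.1, 17.2 and 23.9 RPKM in cDC1 and 0.0621, 0.149 and 0.505 RPKM in cDC2. The cDC2 set included Cd101 at 0.393, 0.308 and 0.159 RPKM in cDC1 and 16.1, 13.3 and 10.5 RPKM in cDC2, Fabp4, a fatty acid carrier, at 0.567, 0 and 0 RPKM in cDC1 and 11.9, 15.8 and 18.9 RPKM in cDC2, and Plaur, the urokinase receptor, at 0.421, 0.12 and 0.752 RPKM in cDC1 and 14.3, 17 and 21.6 RPKM in cDC2. These 4 were picked after their values were seen, and these limits set the gap between the subsets.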
